A study of Mus musculus with 6 samples.

Results

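Serotonin receptors were examined across 6 hippocampal poly(A) RNA libraries, 3 from miR-301a-/- mice (knockout) and 3 from wild-type mice. The set held the 10 receptor genes Htr1a, Htr1b, Htr2a, Htr2c, Htr3a, Htr4, Htr5a, Htr5b, Htr6 and Htr7, found by gene name among the 54393 genes of the deposited table. All mice were of the C57BL/6 strain, untreated and 6 to 8 weeks old, and the labels give no difference between the groups other than genotype. How the deletion was made, the sex of the mice and the number of animals behind each library are not given in the labels. Each library is called here by its genotype and title code (knockout 1-1, 2-2 and 3-1, wild type 1-1, 2-1 and 2-2). No label says that the libraries came from separate animals, so a p-value here reflects spread among the 6 libraries only, and that spread may be technical.

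Serotonin reaches the hippocampus through axons of raphe neurons, and its receptors there sit on pyramidal cells, granule cells and interneurons. All but one of the receptor families are G protein-coupled: the Htr1 and Htr5 receptors couple to the inhibitory Gi/o proteins, the Htr2 receptors to Gq/11 and phospholipase C, and Htr4, Htr6 and Htr7 to Gs and adenylyl cyclase. Htr3a instead encodes a subunit of a ligand-gated cation channel. miR-301a is a microRNA, a short RNA that lowers the output of messages whose 3' UTR pairs with its seed.

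The seed of miR-301a (bases 2 to 8, in capitals) is shared with other microRNAs encoded elsewhere in the genome, 2 of which are shown with it (RefSeq, GRCm38.p6), because the same site in a receptor message could pair with any of them.
mmu-miR-301a-3p: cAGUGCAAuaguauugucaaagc
mmu-miR-130a-3p: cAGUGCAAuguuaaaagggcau
mmu-miR-130b-3p: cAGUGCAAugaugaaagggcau
Among the longest annotated 3' UTRs of the 10 receptor genes, the heptamer TTGCACT that pairs with this seed occurred in 2, those of Htr1b and Htr5a. It was looked for on the message strand only. The share over tested genes with an annotated 3' UTR was 12.6% (1610 of 12768). Both sites are shown with the heptamer in capitals (GENCODE M21 transcripts, GRCm38).
Htr1b, minus strand of chr9:81630240-81630268: ttgataatcatTTGCACTctctcccatct
Htr5a, plus strand of chr5:27854939-27854967: tcaattaattaTTGCACTtccgtctcaat
The Htr1b heptamer began at base 1135 of a 3' UTR of 3101 nt, and the Htr5a heptamer at base 3864 of one of 4002 nt. The median 3' UTR length over tested genes was 1420 nt. The shorter hexamer TGCACT, which every heptamer also contains, was present in 7 of the 10 receptor genes and in 37.4% of tested genes. Htr2c, Htr6 and Htr7 had neither motif in the longest 3' UTR. A match describes the letters of the annotated 3' UTR and is not evidence of binding.

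The values are read as FPKM-like, that is, scaled by gene length and library depth, so levels can be set side by side between genes. The summed values ran from 553879 to 628334 per library, and 24101 to 25121 genes had a value above 0. Low values put the depth very roughly at 14600000 to 24100000 reads per library, and the receptor values then stand for about 84.1 reads (Htr6) to 2626 reads (Htr2c) in a library, counted over the full exonic length. Mir301, the targeted gene, was listed at 0 in all 6 libraries of both genotypes, so it does not check the labels. Hippocampal markers were present in every library: Prox1 of granule cells at 12.7 to 21.6 and Wfs1 of CA1 neurons at 31.0 to 63.1. Among markers of serotonergic neurons, Fev was listed at 0 in 5 of 6 libraries and Slc6a4, the serotonin transporter, did not exceed 0.0797. Gata3, En1 and Lmx1b did not exceed 0.0451. Slc18a2 and Tph2 were above 0 in every library, at 1.06 to 1.57 and 0.300 to 0.730.

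None of the 10 receptor genes differed between knockout and wild type at a limma adjusted p under 0.05. All 10 passed the floor on low values (3 or more of the 6 libraries had to reach 1), and their adjusted p-values ran from 0.832 to 0.995. Over all 14708 genes tested, 16 passed, or 0.109% (0.0544% higher and 0.0544% lower in the knockout). The receptor means were above wild type for 7 genes and below it for 3, with a median log2 fold change of 0.03, against a median of -0.00383 over all tested genes, of which 48.8% lay above 0 and 51.2% below. At an unadjusted p under 0.05 there were 2 receptor genes, Htr2c and Htr4, both higher in the knockout, where 5.72% of tested genes passed this level in either direction, 2.61% on the higher side and 3.11% on the lower. These were also the 2 receptor genes whose groups did not overlap, a separation found in 11.4% of tested genes (5.7% with the knockout above and 5.67% below). In each case this is 20% of the receptor genes, a share that rests on 2 genes and was not tested. In bulk tissue, a change in the number of cells of a type and a change in RNA per cell cannot be told apart.

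**Figure D1:**
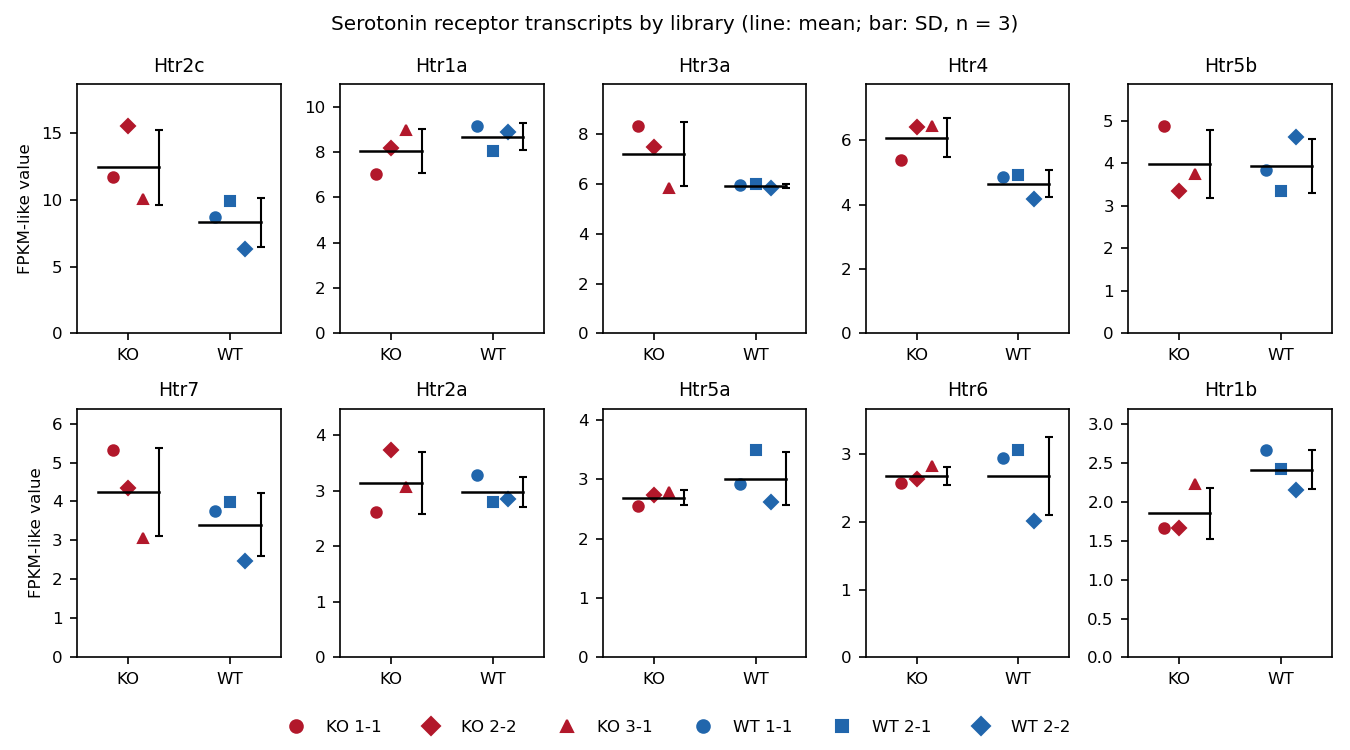
FPKM-like value (vertical axis, from 0, own scale for each gene) of the 10 serotonin receptor genes in knockout (KO, left) and wild-type (WT, right) libraries, 1 point per library, with the mean as a line and the SD as a bar (n = 3). Htr2c and Htr4 are the 2 genes whose knockout points all lie above the wild-type points, while the points of the other 8 overlap.

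Htr1a, the inhibitory autoreceptor of raphe neurons and a postsynaptic receptor of hippocampal pyramidal and granule cells, lies on GRCm38 chromosome 13 (105443639 to 105448122, ENSMUSG00000021721.5). It was at 7.01, 8.17 and 8.95 in knockout 1-1, 2-2 and 3-1, against 9.14, 8.02 and 8.86 in wild type 1-1, 2-1 and 2-2. The groups overlap, and knockout 1-1 is the lowest library. The means were 8.04 ± 0.978 in knockout and 8.67 ± 0.585 in wild type (SD, n = 3 each). On the log2 scale limma gave a difference of -0.10, with a 95% interval from -0.35 to 0.15 (adjusted p = 0.929).

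Htr1b, the autoreceptor and heteroreceptor of axon terminals (chromosome 9, 81628291 to 81633828), was at 1.66, 1.66 and 2.23 in knockout 1-1, 2-2 and 3-1, against 2.67, 2.43 and 2.15 in wild type 1-1, 2-1 and 2-2. Knockout 1-1 and 2-2 lie below every wild-type library, and knockout 3-1 lies just above wild type 2-2. This was the receptor with the lowest fold change in the set, a limma log2 fold change of -0.26 (SE 0.14, 95% interval -0.59 to 0.06, adjusted p = 0.893). Of its exonic bases, 852 are shared with the antisense gene D430036J16Rik on the other strand, which was at 1.31, 0.689 and 1.05 in knockout 1-1, 2-2 and 3-1 and at 1.22, 0.894 and 1.90 in wild type 1-1, 2-1 and 2-2. The sources used here do not say whether counting used the strand, so reads of the 2 genes cannot be told apart in the shared stretch.

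Htr5a and Htr5b, the 2 genes of the least studied Gi/o-coupled family, lie on chromosome 5 (27842149 to 27855088) and chromosome 1 (121509842 to 121528465). Htr5a was at 2.55, 2.74 and 2.78 in knockout 1-1, 2-2 and 3-1, against 2.92, 3.49 and 2.62 in wild type 1-1, 2-1 and 2-2. Htr5b was at 4.88, 3.34 and 3.74 in knockout 1-1, 2-2 and 3-1, against 3.85, 3.34 and 4.62 in wild type 1-1, 2-1 and 2-2. Both genes overlap between genotypes, with wild type 2-1 highest for Htr5a and knockout 1-1 highest for Htr5b. The limma log2 fold changes were -0.11 for Htr5a (95% interval -0.40 to 0.17, adjusted p = 0.929) and 0.01 for Htr5b (95% interval -0.36 to 0.38, adjusted p = 0.995). Htr1b and Htr5a, the 2 receptor genes that carry the miR-301a heptamer, had knockout means below wild type (1.85 against 2.42 and 2.69 against 3.01). Neither passed the test, both intervals include 0, and 51.2% of all tested genes had a log2 fold change below 0. A relation between the heptamer and the direction was not tested.

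Htr2c, a Gq/11-coupled receptor whose message is edited at several adenosines and which is known for its very high level in choroid plexus, lies on chromosome X (146962513 to 147197277, ENSMUSG00000041380.13). It was at 11.7, 15.5 and 10.1 in knockout 1-1, 2-2 and 3-1, against 8.72, 9.89 and 6.29 in wild type 1-1, 2-1 and 2-2. Every knockout library lies above every wild-type library, although knockout 3-1 and wild type 2-1 differ by little. The means were 12.4 ± 2.79 in knockout and 8.30 ± 1.84 in wild type (SD, n = 3 each), a ratio of 1.496. The limma log2 fold change was 0.53 (SE 0.19, 95% interval 0.07 to 0.99, unadjusted p = 0.0303, adjusted p = 0.835), and 2.68% of tested genes had a log2 fold change at least as large in either direction. Its unadjusted limma p stayed under 0.05 without knockout 3-1 (0.0183) or wild type 2-1 (0.0197) and was above it without knockout 1-1, knockout 2-2, wild type 1-1 or wild type 2-2 (0.0523, 0.0902, 0.0516 and 0.0897).

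The annotation places 8 small RNA genes inside Htr2c, among them Mir448, Mir764, Mir1264, Mir1298 and Mir1912, and none shares exonic bases with it. All 8 were listed at 0 in all 6 libraries, which were built from poly(A) RNA.

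Choroid plexus markers were higher in the knockout libraries as a sum, without overlap between genotypes and with none called. Ttr, the transthyretin gene that defines choroid plexus, was at 12.2, 10.7 and 2.74 in knockout 1-1, 2-2 and 3-1, against 1.68, 1.41 and 2.57 in wild type 1-1, 2-1 and 2-2. Its groups do not overlap (limma log2 fold change 1.55, unadjusted p = 0.0131, adjusted p = 0.832), and 0.490% of tested genes had a log2 fold change as large in either direction. The 12 choroid plexus markers summed to 22.4, 19.7 and 10.7 in knockout 1-1, 2-2 and 3-1, against 8.76, 8.89 and 10.05 in wild type 1-1, 2-1 and 2-2. Knockout 1-1 had the highest sum but not the highest Htr2c value, which was in knockout 2-2. In knockout 3-1 the marker sum was close to that of wild type 2-2 (10.7 and 10.05), while Htr2c was at 10.1 and 6.29. That wild-type library had the lowest Htr2c value of the 6. In wild type 2-1 the sum was 8.89 and Htr2c was at 9.89, close to knockout 3-1. Of the 12 markers, 4 passed the floor and had a log2 fold change above 0, with a median of 0.16. Besides Ttr, the untested markers Prlr, Cldn2 and Clic6 had all knockout libraries above all wild-type libraries, at ratios of the means of 2.49, 2.90 and 1.87, and the other 8 markers overlapped. Kcnj13 and Otx2 were each listed at 0 in 2 libraries (Kcnj13 in knockout 3-1 and wild type 2-1, Otx2 in knockout 3-1 and wild type 1-1), Slc4a5 was listed at 0 in wild type 1-1, and no marker was at 0 in all 6. The part of these transcripts in the Htr2c value was not tested.

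Markers of hippocampal subfields varied between the libraries as well. Amigo2, a CA2 marker, was at 20.5, 17.1 and 9.15 in knockout 1-1, 2-2 and 3-1, against 8.51, 7.85 and 6.26 in wild type 1-1, 2-1 and 2-2. All 6 tested CA2 markers had a log2 fold change above 0 (median 0.33), 8 of 9 CA3 markers did (median 0.13), and 7 of 9 CA1 markers had one below 0 (median -0.40). No marker of these lists was called. Groups did not overlap for 3 CA1 markers (Mpped1, Pou3f1 and Ccn3), knockout below, and for 1 tested CA2 marker (Amigo2), knockout above. Over all tested genes these shares were 5.67% below and 5.7% above. The untested CA2 marker Map3k15 also had all knockout libraries above all wild-type libraries, at a ratio of the means of 2.24. The CA2 sums were 263.1 to 338.8 in knockout and 241.6 to 278.7 in wild type, and the CA1 sums 232.6 to 306.2 in knockout and 272.8 to 350.5 in wild type, so that both overlapped. The summed levels of granule cell markers also overlapped (91.6 to 145.1 in knockout and 119.3 to 138.5 in wild type), with knockout 1-1 lowest. Their part in the receptor values was not tested.

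**Figure D2:**
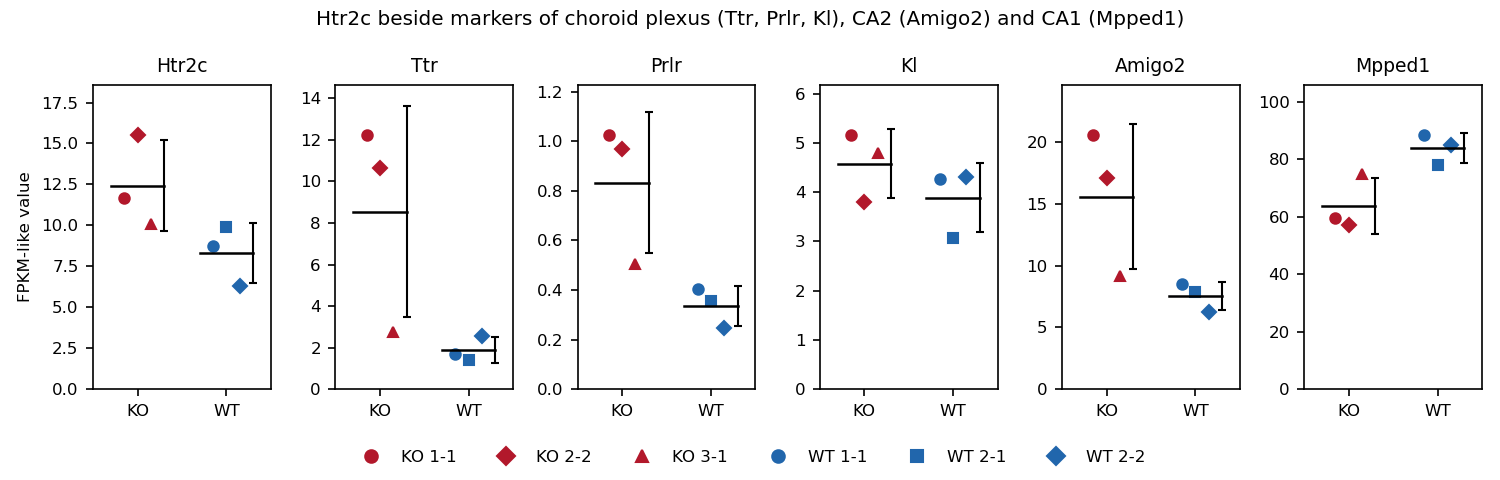
FPKM-like value (vertical axis, from 0) of Htr2c beside choroid plexus markers (Ttr, Prlr, Kl), a CA2 marker (Amigo2) and a CA1 marker (Mpped1), chosen for display after their values were seen; 1 point per library, knockout (KO) left of wild type (WT), line for the mean and bar for the SD (n = 3). Knockout 1-1 and 2-2 stand well above the rest for Ttr (12.2 and 10.7), whereas knockout 3-1 (2.74) is close to wild type 2-2 (2.57).

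Htr2a, the Gq/11-coupled receptor bound by classical hallucinogens (chromosome 14, 74640840 to 74709494), was at 2.62, 3.73 and 3.07 in knockout 1-1, 2-2 and 3-1, against 3.29, 2.79 and 2.86 in wild type 1-1, 2-1 and 2-2. The knockout libraries held both the lowest and the highest value. Its limma log2 fold change was 0.05 (95% interval -0.27 to 0.37, adjusted p = 0.975), with none of the separation seen in Htr2c; the difference between the 2 genes was not tested.

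Htr3a, the subunit that can form the serotonin-gated channel on its own and that marks a class of interneurons (chromosome 9, 48899213 to 48911099), was at 8.32, 7.48 and 5.81 in knockout 1-1, 2-2 and 3-1, against 5.93, 5.97 and 5.83 in wild type 1-1, 2-1 and 2-2. Knockout 1-1 and 2-2 lie above all wild-type libraries, and knockout 3-1 is the lowest of the 6. The limma log2 fold change was 0.23 (95% interval -0.07 to 0.54, adjusted p = 0.893). Htr3b, the partner subunit, was listed at 0 in all 6 libraries. Among 15 interneuron markers, 7 had a log2 fold change above 0 and 8 below, with a median of -0.04 and none called. Their summed levels overlapped (1502 to 1571 in knockout and 1473 to 1656 in wild type). The groups of 2 of the 15, Gad2 and Cnr1, did not overlap, with the knockout above, beside 11.4% of tested genes. An unadjusted limma p under 0.05 was found for 3 markers higher and 1 lower (Lamp5, log2 fold change -0.24), beside 5.72% of tested genes. Cnr1, the cannabinoid receptor of cholecystokinin interneurons, was above wild type in all 3 knockout libraries, with a limma adjusted p of 0.832. Knockout 1-1, 2-2 and 3-1 were at 51.5, 49.9 and 45.1. Wild type 1-1, 2-1 and 2-2 were at 45.0, 39.5 and 37.6, so knockout 3-1 and wild type 1-1 were nearly equal. Cck, the cholecystokinin gene itself, and Vip went the other way, with overlapping groups (limma log2 fold changes -0.07 and -0.23).

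Htr4, a Gs-coupled receptor of pyramidal and granule neurons (chromosome 18, 62324204 to 62496577, ENSMUSG00000026322.9), was at 5.37, 6.40 and 6.44 in knockout 1-1, 2-2 and 3-1, against 4.86, 4.92 and 4.18 in wild type 1-1, 2-1 and 2-2. All knockout libraries lie above all wild-type libraries, with knockout 1-1 nearest to them. The means were 6.07 ± 0.608 in knockout and 4.65 ± 0.409 in wild type (SD, n = 3 each), a ratio of 1.30. The limma log2 fold change was 0.32 (SE 0.11, 95% interval 0.06 to 0.58, unadjusted p = 0.0213, adjusted p = 0.832), a size reached by 7.15% of tested genes in either direction. The 2 highest Htr4 values were in knockout 3-1 and 2-2 (6.44 and 6.40), where Ttr was at 2.74 and 10.7. A relation between Htr4 and Ttr was not tested. The unadjusted limma p was above 0.05 without knockout 2-2, knockout 3-1 or wild type 2-2 (0.0626, 0.0704 and 0.0714).

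Htr6 and Htr7, the other Gs-coupled receptors, lie on chromosome 4 (139061108 to 139075570) and chromosome 19 (35958734 to 36057507). Htr6 was at 2.58, 2.63 and 2.83 in knockout 1-1, 2-2 and 3-1, against 2.95, 3.06 and 2.01 in wild type 1-1, 2-1 and 2-2. Htr7 was at 5.32, 4.35 and 3.07 in knockout 1-1, 2-2 and 3-1, against 3.74, 3.999 and 2.49 in wild type 1-1, 2-1 and 2-2. The 3 knockout values of Htr6 fall within the range of wild type, and for Htr7 the 2 highest libraries are knockout 1-1 and 2-2 while knockout 3-1 lies below 2 wild-type libraries. Htr7 had the widest interval of the set (limma log2 fold change 0.25, 95% interval -0.25 to 0.74, adjusted p = 0.918), and Htr6 was at 0.01 (95% interval -0.33 to 0.36, adjusted p = 0.993).

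**Figure D3:**
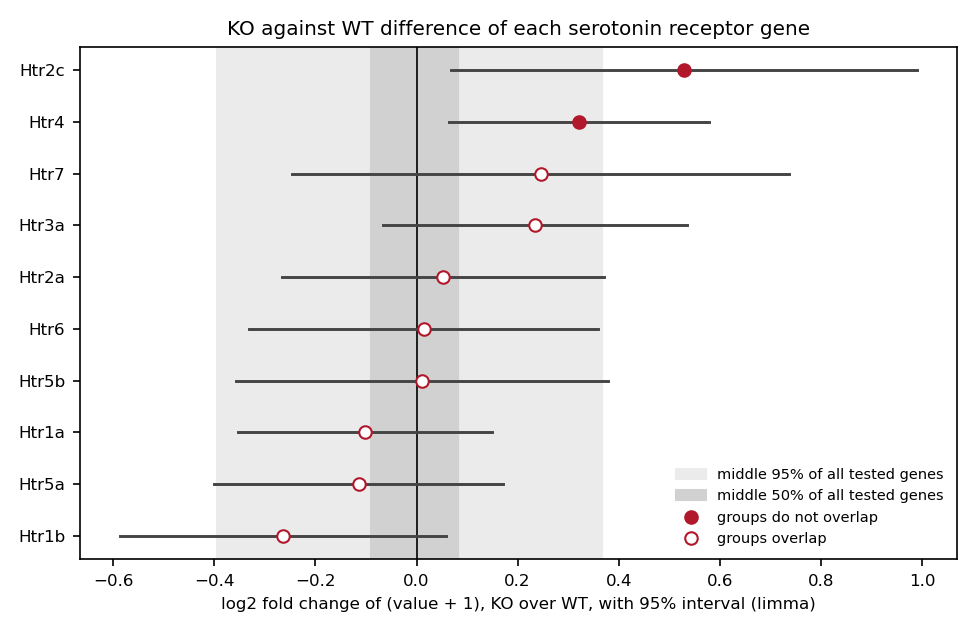
Log2 fold change of (value + 1), knockout (KO) over wild type (WT), for each serotonin receptor gene (points) with its 95% limma interval (lines); filled points are genes whose groups do not overlap, and the shaded bands are the middle 50% and 95% of all tested genes. The intervals of 8 genes include 0 and reach from -0.59 to 0.74, and those of Htr2c (0.07 to 0.99) and Htr4 (0.06 to 0.58) lie above 0 before adjustment.

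By mean level over the 6 libraries, the order from high to low was Htr2c (10.4), Htr1a (8.36), Htr3a (6.56), Htr4 (5.36), Htr5b (3.96), Htr7 (3.83), Htr2a (3.06), Htr5a (2.85), Htr6 (2.68) and Htr1b (2.13). Neighbours in this order were not cleanly separated. Htr2c exceeded Htr1a in all 3 knockout libraries but in 1 of the 3 wild-type libraries, and Htr1a led in the wild-type means (8.67 against 8.30 for Htr2c). Each of the pairs Htr1a and Htr3a, Htr3a and Htr4, Htr4 and Htr5b, Htr2a and Htr5a, and Htr6 and Htr1b kept its order in 5 of 6 libraries, while Htr7 exceeded Htr2a in 4 of 6. Htr5b exceeded Htr7, and Htr5a exceeded Htr6, in 3 of 6. Htr2c made up 21.1% of the summed mean receptor values and Htr1b 4.34%.

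Grouped by coupling, the Gq/11-coupled pair summed to 14.3, 19.2 and 13.2 in knockout 1-1, 2-2 and 3-1, against 12.01, 12.7 and 9.14 in wild type 1-1, 2-1 and 2-2. The 3 Gs-coupled genes summed to 13.3, 13.4 and 12.3 in knockout, against 11.6, 11.98 and 8.68 in wild type, in the same library order. The 4 Gi/o-coupled genes summed to 16.1, 15.9 and 17.7 in knockout, against 18.6, 17.3 and 18.3 in wild type. The Gq/11 and Gs sums did not overlap between genotypes, while the Gi/o sums did. Over all 10 genes the sums were 49.0 to 56.0 in knockout and 41.9 to 48.1 in wild type, also without overlap. Without Htr2c the sums overlapped, at 38.9 to 40.5 in knockout and 35.6 to 39.4 in wild type. Because Htr2c and Htr4 separate on their own, these sums are not further evidence, and no test was made of them.

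The receptor genes outside the 10 were all under the floor and were not tested. Htr1f, a Gi/o-coupled receptor, was at 0.784, 0.867 and 0.682 in knockout 1-1, 2-2 and 3-1, against 0.868, 0.826 and 0.813 in wild type 1-1, 2-1 and 2-2. Htr2b, known from heart valves and gut, was at 0.0411 to 0.397 in knockout and 0.0201 to 0.386 in wild type. Htr1d, the relative of Htr1b, was at 0.0693, 0.231 and 0.5001 in knockout 1-1, 2-2 and 3-1, against 0.0176, 0.0375 and 0.0495 in wild type 1-1, 2-1 and 2-2. Its groups do not overlap, but the values stand for roughly 1.36 to 27.2 reads per library. In the authors' deposited table Htr1d had a log2 fold change of 2.60 with a p-value of 0.104 and an adjusted p of 1.

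In the authors' deposited table all 10 receptor genes had a p-value of 1. There the log2 fold change was 0.58 for Htr2c, 0.38 for Htr4 and -0.39 for Htr1b. The test behind these values is not named, and 64.9% of the genes with a p-value in that table were listed at 1.

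Genes that make, move and break down serotonin were mostly low or even between genotypes. Of 13 such genes, 8 passed the floor, 2 with a log2 fold change above 0 and 6 below, and none was called (median -0.03). The 3 highest were Qdpr, which recycles the tetrahydrobiopterin cofactor of serotonin synthesis, Aldh2, an aldehyde dehydrogenase downstream of monoamine oxidase, and Pts, another cofactor enzyme. Aldh2 was at 63.3, 56.3 and 62.1 in knockout 1-1, 2-2 and 3-1, against 68.8, 74.6 and 63.7 in wild type 1-1, 2-1 and 2-2, without overlap (limma log2 fold change -0.18, adjusted p = 0.874). Qdpr was at 117.5 to 163.6 in knockout and 132.1 to 177.2 in wild type, and Pts at 22.5 to 29.1 in knockout and 23.6 to 31.2 in wild type, both overlapping. Tph2, the neuronal enzyme that commits tryptophan to serotonin, was at 0.395 to 0.730 in knockout and 0.300 to 0.554 in wild type, under the floor.

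The signalling partners of the receptors gave no call either. Over the 7 lists of other receptor, synthesis, effector, partner and regulator genes, 81 of 92 genes were tested, 41 with a log2 fold change above 0 and 40 below. Of these 81, 4.94% had an unadjusted p under 0.05 and 12.3% had groups without overlap, beside 5.72% and 11.4% over all tested genes. The genes without overlap were Ddc, Rgs19, Adcy5, Pde4b, Grk5 and Adarb1 with the knockout above, and Aldh2, Rgs2, Adcy8 and Grk2 with the knockout below. The Gi/o list was even (8 above and 6 below, median 0.01). It is led by Gnao1, the most abundant brain Gi/o subunit, at 245.8 to 269.5 in knockout and 247.8 to 263.2 in wild type, and by the beta and gamma subunits Gnb1 and Gng2. The Gq/11 list was even as well (5 above and 6 below, median -0.00725), with Prkcb, a protein kinase C gene, and Itpr1, an inositol trisphosphate receptor, among its highest genes. Itpr1 was at 53.4, 51.1 and 61.6 in knockout 1-1, 2-2 and 3-1, against 65.1, 62.1 and 61.2 in wild type 1-1, 2-1 and 2-2 (limma log2 fold change -0.18, adjusted p = 0.876).

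The Gs list had 13 of 18 genes with a log2 fold change above 0 (median 0.07), against 48.8% of all tested genes, with none called. It is not confined to Gs subunits and adenylyl cyclases. It also holds Gna12 (log2 fold change -0.07) and Pde4a, Pde4b and Pde4d (0.07, 0.13 and 0.06). Gnas, the Gs subunit itself, was at 806.3 to 876.5 in knockout and 759.4 to 828.4 in wild type, while Prkar1a, a regulatory subunit of protein kinase A, and Rapgef4, a cAMP-activated exchange factor, also overlapped. Adcy8, a calcium-stimulated adenylyl cyclase, ran the other way, at 2.63, 3.00 and 3.46 in knockout 1-1, 2-2 and 3-1, against 4.64, 4.12 and 3.84 in wild type 1-1, 2-1 and 2-2. Its groups do not overlap (limma log2 fold change -0.37, unadjusted p = 0.0190, adjusted p = 0.832). Of the 20 partner genes 19 were matched and tested, 10 above 0 and 9 below (median 0.01), and the 3 highest were Ywhae, an adaptor protein gene, Dlg4, which encodes a postsynaptic scaffold that binds Htr2a and Htr2c, and Grk2. Grk2, a kinase that desensitises active receptors, was at 64.5, 60.4 and 66.6 in knockout 1-1, 2-2 and 3-1, against 67.0, 70.8 and 75.3 in wild type 1-1, 2-1 and 2-2 (limma adjusted p = 0.877).

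Among 11 reported regulators of receptor transcription or editing, 3 had a log2 fold change above 0 and 8 below (median -0.05), and none was called. Adarb1, an adenosine deaminase known to edit the Htr2c message, was at 38.4, 34.6 and 35.7 in knockout 1-1, 2-2 and 3-1, against 31.7, 32.2 and 31.4 in wild type 1-1, 2-1 and 2-2. Its groups do not overlap (limma log2 fold change 0.18, SE 0.06, unadjusted p = 0.0189, adjusted p = 0.832). Adar, another adenosine deaminase of this list, was at 36.6 to 42.4 in knockout and 36.0 to 40.0 in wild type, overlapping. Gene values carry no information on editing itself. Nr3c2, the mineralocorticoid receptor, was at 36.5 to 50.2 in knockout and 41.5 to 54.2 in wild type.

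**Figure D4:**
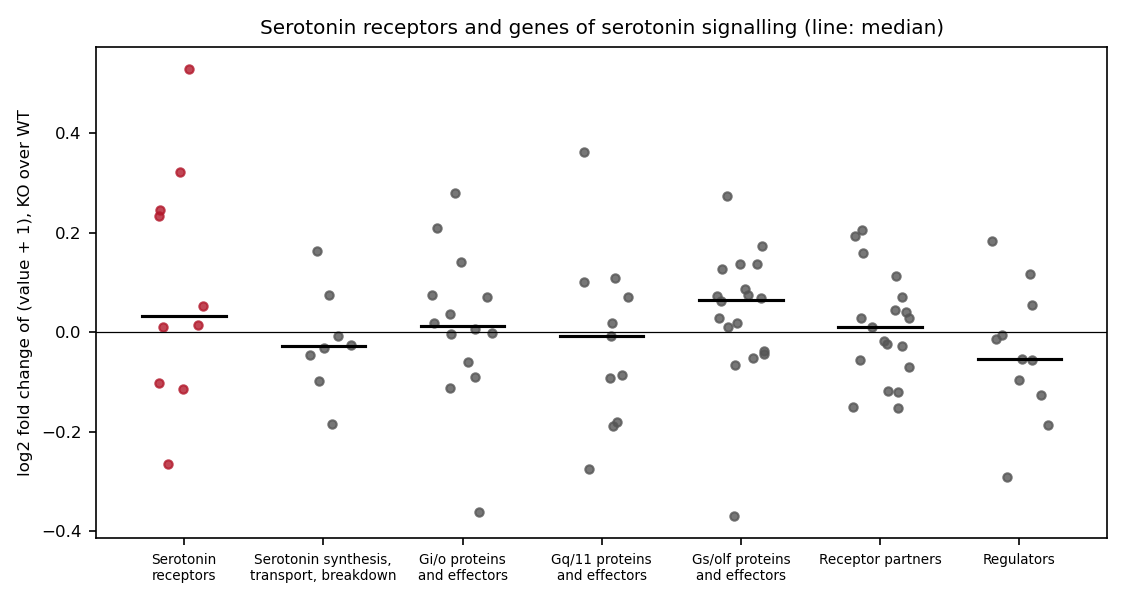
Log2 fold change of (value + 1), knockout (KO) over wild type (WT), of the 10 serotonin receptor genes and of tested genes in 6 lists of serotonin signalling, 1 point per gene, with the median as a line (horizontal scatter has no meaning). The receptor median is 0.03 and the list medians run from -0.05 to 0.07, with no gene called.

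For the 3 receptor genes with the widest range over the 6 libraries (Htr2c, Htr7 and Htr4), the genes with the most similar pattern were found by the mean absolute difference of log2 deviations from each gene's own mean, over 6 libraries and 10201 genes with a mean of 5 or more. For Htr2c these were Ccnyl1, Lamb1 and Flrt3, at differences of 0.05, 0.10 and 0.12, beside a median of 0.30 over all candidates. Ccnyl1 was at 12.4, 16.4 and 9.89 in knockout 1-1, 2-2 and 3-1, against 10.4, 10.4 and 6.52 in wild type 1-1, 2-1 and 2-2. For Htr7 they were Cpne7, Ints4 and Msantd2, at 0.0775, 0.0776 and 0.08, beside a median of 0.25. Cpne7 is one of the CA3 markers used above and was at 112.8, 101.1 and 81.2 in knockout 1-1, 2-2 and 3-1, against 83.4, 85.7 and 68.4 in wild type 1-1, 2-1 and 2-2. For Htr4 they were Slc35e2, Mbtps2 and Zbtb20, at 0.03, 0.04 and 0.04, beside a median of 0.19. Zbtb20, a transcription factor of developing hippocampus, was at 25.2, 29.3 and 26.2 in knockout 1-1, 2-2 and 3-1, against 22.5, 22.9 and 19.6 in wild type 1-1, 2-1 and 2-2. These nearest patterns, taken from many candidates over 6 libraries, are given as a description.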

How the data were processed

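The deposited table held 1 value per gene and library, with no unit named. The authors' deposited values were read as FPKM, since column sums differ and the smallest values scale with 1 over exonic length. Per the submitters' processing notes, the tools were HISAT2 2.1.0, HTSeq and bcl2fastq and the build mm10, with no roles stated. The series' design text names BWA, TopHat, Cufflinks and ANOVA, and which program made the table is not stated. Depth is unknown beyond a rough estimate from low values of single-transcript genes of 2000 to 10000 nt, so no counting interval was computed. Alongside these the authors deposited log2 fold changes and p-values, raw and adjusted.

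For testing, 1 was added to each value, log2 was taken and limma 3.58.1 (R 4.3.3) was fitted with genotype as the term, empirical Bayes with trend, two-sided. Benjamini-Hochberg adjustment ran over the 14708 genes that reached 1 in 3 or more libraries. Fold changes on this scale understate those of low genes. The fit was tested on simulated data. Annotation was GENCODE M21 on GRCm38, with 54393 of 54393 identifiers found, and summaries used Python 3.11.15. No 2 of the 15 library pairs held identical values (correlation across genes 0.968 to 0.978).

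The receptor genes and gene lists were chosen with earlier results of these data known. Named genes are the 10 receptors, the other receptor genes, the 3 highest genes of each pathway list (1 of these is not reported here), the 3 nearest patterns to each of 3 receptors, and defining markers of choroid plexus. Other markers and list genes were named after their values were seen, and marker lists are otherwise given as sums. Of the partner list, 1 symbol (Nherf1) was not matched, and Nov was matched as Ccn3. The CA1, CA2, CA3, granule cell, interneuron, choroid plexus and serotonergic lists are given where they bear on a receptor. The other marker lists are in the closing part.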

Additional observations from a re-analysis of the deposited data

How the results depend on the processing

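No receptor gene was called under any of 13 alternatives (130 fits, lowest limma adjusted p 0.755): pseudocounts of 0.1 and 0.5, no floor or a floor of 0.1, rescaling by the median of ratios, limma without trend, the replicate block, and each library left out. The direction held in all of them for 7 genes. Without 1 library the limma log2 fold change ran from -0.0485 to 0.14 for Htr2a, from -0.11 to 0.11 for Htr5b and from -0.12 to 0.0928 for Htr6, and from 0.36 to 0.66 for Htr2c and 0.26 to 0.40 for Htr4. It ran from 0.08 to 0.42 for Htr7, 0.14 to 0.36 for Htr3a, -0.17 to -0.02 for Htr1a, -0.19 to -0.03 for Htr5a and -0.36 to -0.21 for Htr1b. The 16 calls over all genes became 4 with no floor, and 4 to 17 without 1 library (6 without knockout 2-2, 4 without wild type 2-1 and 6 without wild type 2-2). The cause was not tested.

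The replicate block used the codes 1-1 and 2-2 that both genotypes share. Knockout 3-1 and wild type 2-1 have codes of their own, so with the block they add nothing to the genotype difference. Same-code libraries had correlations of -0.10 and -0.06 between their deviations from the group means. Those of the other knockout and wild-type pairs ran from -0.057 to 0.11. With 3 libraries per group these values cannot decide whether the codes pair libraries. With the block, which leaves 1 residual degree of freedom, 0 genes were called, Htr2c had a log2 fold change of 0.78 (unadjusted limma p 0.0214) and Htr5b of -0.0473. Htr7 was at 0.52 (unadjusted limma p 0.0354, against 0.276 without the block) and Htr4 at 0.32 (0.140, against 0.0213). The adjusted p of all 10 receptor genes was 0.9998 with the block.

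Ranked by knockout means alone 8 genes kept their place in the order of levels, and by wild-type means alone 6. Over all annotated 3' UTRs 2 receptor genes again held the heptamer. Depth limits Htr6, Htr5b and Htr1b most, with roughly 84.1, 94.6 and 115 reads in their lowest libraries.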

Other observations

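Other marker lists were compared as sums of values. Oligodendrocyte markers summed to 2135 to 3181 in knockout and 2566 to 3857 in wild type, astrocyte markers to 1149 to 1419 in knockout and 1191 to 1308 in wild type, and microglia markers to 202.6 to 287.4 in knockout and 230.8 to 255.1 in wild type. Endothelial and mural markers summed to 81.6 to 101.8 in knockout and 75.1 to 103.7 in wild type, and neocortical markers to 110.9 to 139.1 in knockout and 129.3 to 138.7 in wild type. Striatal and septal markers summed to 53.6 to 59.9 in knockout and 53.1 to 61.3 in wild type, and habenular and thalamic markers to 24.6 to 32.3 in knockout and 21.6 to 27.2 in wild type. Ependymal markers summed to 23.1 to 53.1 in knockout and 21.5 to 33.4 in wild type, and erythroid markers to 214.9 to 441.4 in knockout and 158.9 to 294.6 in wild type. CA3 markers summed to 742.3 to 971.4 in knockout and 729.0 to 841.6 in wild type. For these 3 lists the highest library was knockout 1-1, and all 3 overlapped between genotypes. Knockout 1-1 was also highest for the astrocyte and microglia sums, which overlapped too, and for the CA2 and choroid plexus sums given above. No gene of these lists was called by limma.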
